A study of Mus musculus with 2 samples.

Results

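The Hox-cluster microRNAs miR-196, miR-10 and miR-615 are made from 6 genes that lie among the Hox genes of the mouse: Mir196b in HoxA, Mir196a-1 and Mir10a in HoxB, Mir196a-2 and Mir615 in HoxC, and Mir10b in HoxD. They were taken by name, and all 6 had a row among the 1973 microRNA genes measured. Their levels were read by small RNA sequencing in limbs of mouse embryos at 12.5 days of development. The data form 1 group of 2 libraries, which the labels number as biological replicates 1 and 2. Each library is a pool of healthy B6NCrl embryos of both sexes, 88 in replicate 1 and 68 in replicate 2, and the labels give the size range of the RNA as below 30 nucleotides. The labels name the tissue as limb only, without separating forelimbs from hindlimbs, and pooling hides the spread between embryos. As a single group allows no comparison of conditions, the genes were compared with each other by Hox cluster, by position in the cluster and by genomic copy.

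Hox genes are arranged in 4 clusters in the order in which they act along the body and limb axes, the genes at the 5′ end of a cluster acting in the more posterior and distal regions. A microRNA pairs through its seed, bases 2 to 8 of the mature strand, with sites in messenger RNAs and lowers their translation or stability, and Hox messenger RNAs are among the known targets of both miR-196 and miR-10. In the mouse, miR-196a directs cleavage of the Hoxb8 messenger RNA, and it is known for its presence in the hindlimb, where Hoxb8 is kept low.

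The mature strands explain how the genes fall into families and which reads can be told apart. RefSeq (build GRCm38.p6, the assembly also called mm10) gave the mature strands of all 6 genes. The seed is in capitals in each.
miR-196b-5p (Mir196b): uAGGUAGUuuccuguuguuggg
miR-196a-5p (Mir196a-1 and Mir196a-2): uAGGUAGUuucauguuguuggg
miR-10b-5p (Mir10b): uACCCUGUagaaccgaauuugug
miR-10a-5p (Mir10a): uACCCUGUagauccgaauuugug
miR-615-3p (Mir615): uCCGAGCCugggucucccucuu
The 3 miR-196 genes share the seed AGGUAGU, the 2 miR-10 genes share ACCCUGU, and miR-615-3p has a seed of its own. No mature strand of another mouse gene in RefSeq had the seed of any strand of the 6 genes. Counted from the 5′ end, miR-196b-5p differs from miR-196a-5p by C12A and miR-10b-5p from miR-10a-5p by A12U, so each family holds a single base change, at position 12 in both. The seed letters of miR-196 also occur in let-7 strands, but from base 3 instead of base 2, as in let-7a, let-7b, let-7c, let-7d, let-7f, let-7g and let-7i, so the families share letters in a different register.

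The genomic copies differ in how far they can be separated. The whole strand of miR-196a-5p, 22 bases, lies in both the Mir196a-1 and the Mir196a-2 hairpin, and it was the only strand of the 6 genes found in more than 1 of the 2202 microRNA hairpins searched. This stretch is also the longest that the 2 hairpins share. The bases on either side of it differ, with G before and C after it in Mir196a-1 and T before and A after it in Mir196a-2 (written as DNA), so only a read that runs past an end of the strand, or a read from the other arm, belongs to 1 copy. The other arms are distinct, and they are shown because reads from them can be assigned.
miR-196a-1-3p (Mir196a-1): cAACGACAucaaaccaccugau
miR-196a-2-3p (Mir196a-2): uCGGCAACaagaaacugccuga
The longest exact stretch that Mir196b, Mir615, Mir10a or Mir10b shared with another hairpin elsewhere was 12 bases for Mir196b, 14 for Mir615 and 15 for Mir10a and Mir10b, the last between each other. A count covers the whole hairpin and does not say which arm a read came from, and reads mapping to several places were assigned to no gene.

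The 6 genes sit at repeated positions of the clusters. Mir196b (mm10 chr6:52230081-52230165, minus strand) lies between the coding regions of Hoxa10, at 2.34 kb, and Hoxa9, at 3.98 kb, in an exon of some non-coding transcripts of Hoxa9 and in an intron of another. Mir196a-2 (chr15:102973350-102973434, plus strand) lies between those of Hoxc10, at 2.28 kb, and Hoxc9, at 8.22 kb, in an intron of a non-coding Hoxc5 transcript. Mir196a-1 (chr11:96265164-96265265, plus strand) lies 6.28 kb before the coding region of Hoxb9 and 68.9 kb after that of Hoxb13, outside any other transcript. Mir10a (chr11:96317165-96317274, plus strand) lies 1.5 kb before the coding region of Hoxb4, outside any other transcript. Mir10b (chr2:74726070-74726137, plus strand) lies 1.14 kb before that of Hoxd4, in introns of Hoxd4 and Hoxd3 transcripts. Mir615 (chr15:103014910-103015001, plus strand) lies in an intron within the coding region of Hoxc5. The miR-196 genes therefore lie on the 5′ side of paralogous group 9, in HoxA and HoxC nearer to group 10, and the miR-10 genes lie next to group 4. Mir615 was placed on the posterior side with miR-196 by the rule used here, but the annotation puts it in group 5, nearer to the miR-10 position, and comparisons by side are given with this in view.

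**Figure D1:**
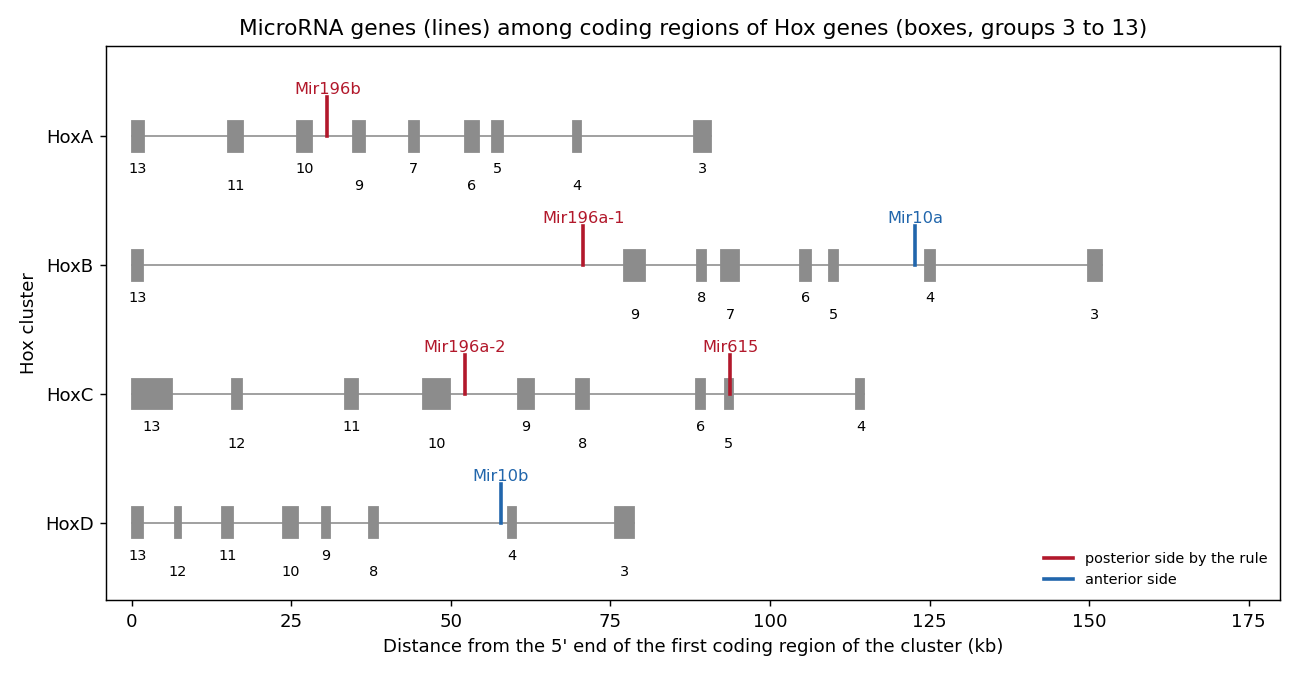
Positions of the 6 microRNA genes (vertical lines) among the coding regions of the Hox genes (boxes numbered by paralogous group, 3 to 13), with the distance in kb from the 5′ end of the first coding region of each cluster on the horizontal axis. The 3 miR-196 genes stand 5′ of group 9, in HoxA and HoxC nearer to group 10. The 2 miR-10 genes stand just 5′ of group 4, and Mir615 stands within group 5.

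The libraries held 4525636 counts on microRNA genes in replicate 1 and 3604284 in replicate 2. Levels are counts per 1000000 of these (CPM), read from the gene's own strand. A count of 0 allows up to 3 counts, or 0.663 CPM in replicate 1 and 0.832 CPM in replicate 2. Intervals in single libraries are 95% Clopper-Pearson intervals. Like the limits for a count of 0 they hold counting error alone. Where PCR copies of a molecule are counted as separate reads, they are too narrow even for that error. The limb label was set beside marker microRNAs. Cartilage (Mir140 and Mir455, 26021 and 25204 CPM summed in replicates 1 and 2), mesenchyme (4 genes, 48473 and 58637 CPM) and ectoderm (7 genes, 18586 and 18972 CPM) reached 10 CPM in every marker. Of skeletal muscle, 2 of 5 measured genes reached it, Mir206 at 2196 and 2498 CPM and Mir133b at 46.8 and 43.3 CPM, while Mir1a-1 stood at 2.43 and 0 CPM and Mir133a-1 and Mir133a-2 at 0 in both libraries. Markers of neural tissue, which also uses Hox genes, summed to 145 and 159 CPM over 6 genes, nearly all from Mir137, with Mir9-2 and all 3 Mir124a genes at 0 in both libraries. Mir1a-1, Mir9-2 and the Mir133a and Mir124a genes have copies with the same mature strand, whose reads may be among those that map to several places. Their low or 0 counts therefore do not show that these microRNAs were absent. Which of these tissues the Hox microRNAs came from was not tested, and in whole tissue fewer cells of a type and less RNA per cell cannot be told apart.

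All 6 genes were detected, and their levels spanned more than 3 orders of magnitude. Each reached 10 CPM or more in both libraries, which 14.5% of all 1973 genes did. Of the 6, 5 reached 1000 CPM in the mean, which 4.71% of all genes did, and the exception was Mir196a-1. Together they held 12.7% (interval 12.6 to 12.7) of the gene counts in replicate 1 and 11.3% (11.3 to 11.4) in replicate 2. Among the 1894 rows that could be placed on the genome, no other lay within the spans of the Hox clusters, while the other 79 were not placed. On the opposite strand the 6 genes had 0 counts in both libraries.

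Mir196b, the only copy of miR-196 in HoxA, gave 422971 counts in replicate 1 and 289067 in replicate 2. This corresponds to 93461 CPM (interval 93193 to 93730) and 80201 CPM (79921 to 80482), a mean of 86831 ± 9376 CPM (SD, n = 2). In assigned reads it was the highest of all genes in each library. Genes with identical copies lose their reads that map to several places, so its rank is not settled for all reads. The gene nearest to it in level was Mir335, with 80628 and 71808 CPM in replicates 1 and 2, so replicate 1 of Mir335 and replicate 2 of Mir196b overlapped although Mir196b led within each library.

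Mir196a-2, the HoxC copy of miR-196a, stood at 1659 CPM (interval 1622 to 1697) in replicate 1 and 1698 CPM (1656 to 1741) in replicate 2, a mean of 1678 ± 28 CPM. Mir196a-1, the HoxB copy, stood at 29.8 CPM (25.0 to 35.3) and 33.0 CPM (27.4 to 39.5), from 135 and 119 counts, a mean of 31.4 ± 2.3 CPM. The libraries overlapped in their counting intervals for each of these copies, and the copies were far apart: Mir196a-2 exceeded Mir196a-1 by 55.6 times (46.9 to 66.4) in replicate 1 and 51.4 times (42.9 to 62.2) in replicate 2. Since a read of miR-196a-5p alone cannot be assigned to a copy, this ratio does not give the copies' shares of the mature strand.

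Mir196b exceeded the 2 Mir196a copies together by 55.3 times (54.1 to 56.6) in replicate 1 and 46.3 times (45.2 to 47.5) in replicate 2, counting assigned reads only. The reads mapping to several places were 2892656 in replicate 1 and 2310423 in replicate 2, or 5.05 and 5.66 times the counts of all 6 genes. If 14.4% of these reads in replicate 1 and 12.2% in replicate 2 belonged to miR-196a, the 2 copies would equal Mir196b. The deposited counts do not say which genes these reads came from, so the order of miR-196a and miR-196b holds for assigned reads only. The 5p strands of miR-196a and miR-196b also differ at only 1 base. As the mismatch setting of the alignment is not given in the sources used here, an exchange of reads between them was not tested.

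Mir615, in the intron of Hoxc5, gave 2791 CPM (interval 2743 to 2840) in replicate 1 and 3812 CPM (3749 to 3876) in replicate 2, a mean of 3302 ± 722 CPM. The libraries did not overlap in their counting intervals, and its coefficient of variation of 21.9% in CPM was the highest of the 6. It lies on the same cluster and strand as Mir196a-2 and exceeded it by 1.68 times (1.63 to 1.73) in replicate 1 and 2.24 times (2.18 to 2.31) in replicate 2.

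Mir10b, in HoxD, gave 20729 CPM (interval 20597 to 20860) in replicate 1 and 20420 CPM (20274 to 20566) in replicate 2, a mean of 20574 ± 218 CPM. Its coefficient of variation of 1.06% was the lowest of the 6 in CPM, a ranking that depended on the scaling, as given below. Mir10a, in HoxB, gave 7892 CPM (7811 to 7974) and 7102 CPM (7015 to 7189), a mean of 7497 ± 559 CPM. Mir10b exceeded Mir10a by 2.63 times (2.59 to 2.66) in replicate 1 and 2.88 times (2.83 to 2.92) in replicate 2. Their 5p strands differ at 1 base, and the mismatch setting of the alignment is not given in the sources used here, so an exchange of reads between them was not tested.

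In order of level in assigned reads the genes were Mir196b, Mir10b, Mir10a, Mir615, Mir196a-2 and Mir196a-1, in both libraries. No pair of neighbours in this order overlapped between libraries. The closest neighbours relative to their spread were Mir615 and Mir196a-2, whose means differed by 1623 CPM against a combined SD of 722 CPM, followed by Mir10a and Mir615, which differed by 4195 CPM against 913 CPM. Divided by hairpin length, which runs from 68 nucleotides for Mir10b to 110 for Mir10a, all 6 genes kept their place. The RNA was below 30 nucleotides, so a count need not scale with hairpin length. This division therefore adds no support to the order. With 2 libraries the smallest p that an exact two-sided sign test can give is 0.5, so no order was tested.

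**Figure D2:**
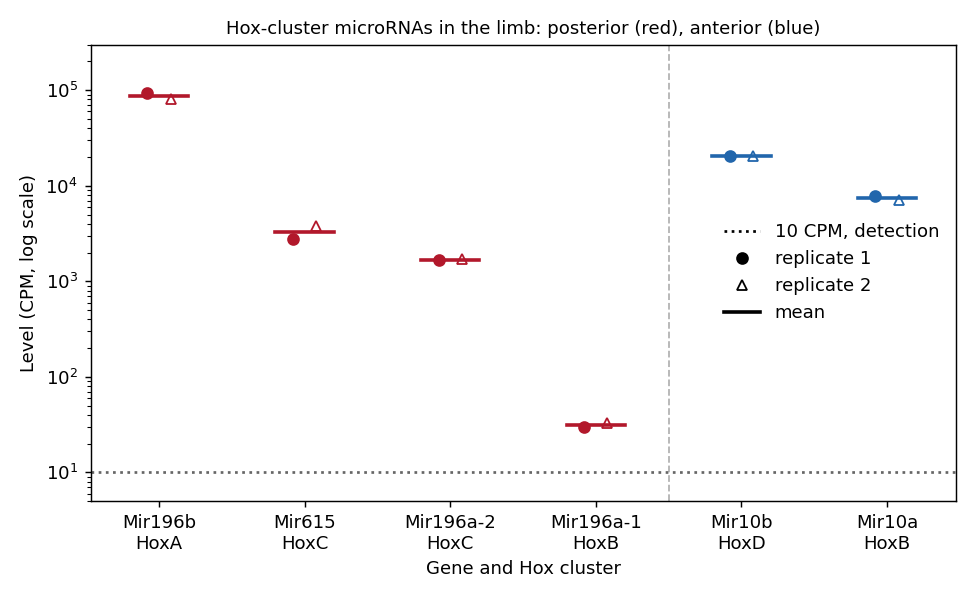
Levels of the 6 genes in CPM on a log axis, with replicate 1 as filled circles, replicate 2 as open triangles and the mean as a bar; genes on the posterior side of the rule are red and left of the dashed line, anterior genes blue. Mir196b stands at 80201 to 93461 CPM and Mir196a-1 at 29.8 to 33.0 CPM, with both miR-10 genes between them.

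By position, the posterior genes (miR-196 and Mir615) exceeded the anterior miR-10 genes by 3.42 times (3.40 to 3.44) in replicate 1 and 3.12 times (3.09 to 3.14) in replicate 2, a mean of 3.27 ± 0.22 (SD, n = 2). The posterior genes held 9.79% and 8.57% of the gene counts, and the anterior genes 2.86% and 2.75%. This direction came from Mir196b. Without it, the other posterior genes reached 0.157 times the miR-10 level in replicate 1 and 0.201 times in replicate 2, so in assigned reads all of them together lay below miR-10. Reads of miR-196a that map to several places are missing from this sum, so the order without Mir196b holds for assigned reads only. With Mir615 moved to the anterior side, as its place in Hoxc5 would have it, the ratio was 3.03 in replicate 1 and 2.61 in replicate 2.

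By cluster, HoxA held 73.8% (interval 73.7 to 74.0) of the counts of the 6 genes in replicate 1 and 70.8% (70.7 to 70.9) in replicate 2, all from Mir196b. HoxD followed with 16.4% and 18.0%, all from Mir10b. HoxB held 6.26% and 6.30%, and HoxC 3.52% and 4.86%. In assigned reads, the clusters that carry 2 of the genes thus held less than those that carry 1. HoxB and HoxC each carry a Mir196a copy, whose reads that map to several places are missing from these shares, so this is not settled for all reads. Within HoxB, Mir196a-1 and Mir10a lie on the same strand, and Mir196a-1 was the lower: Mir10a exceeded it by 265 times (223 to 316) in replicate 1 and 215 times (180 to 260) in replicate 2, for assigned reads. In HoxC Mir196a-2 was also below its neighbour Mir615, so in neither of these clusters did the miR-196 gene lead in assigned reads. The gap in HoxC, 12632 counts of Mir615 against 7508 of Mir196a-2 in replicate 1 and 13739 against 6120 in replicate 2, is small beside the reads that map to several places, so this order is not settled for miR-196a as a whole. The miR-196 gene of HoxA led the set in assigned reads.

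**Figure D3:**
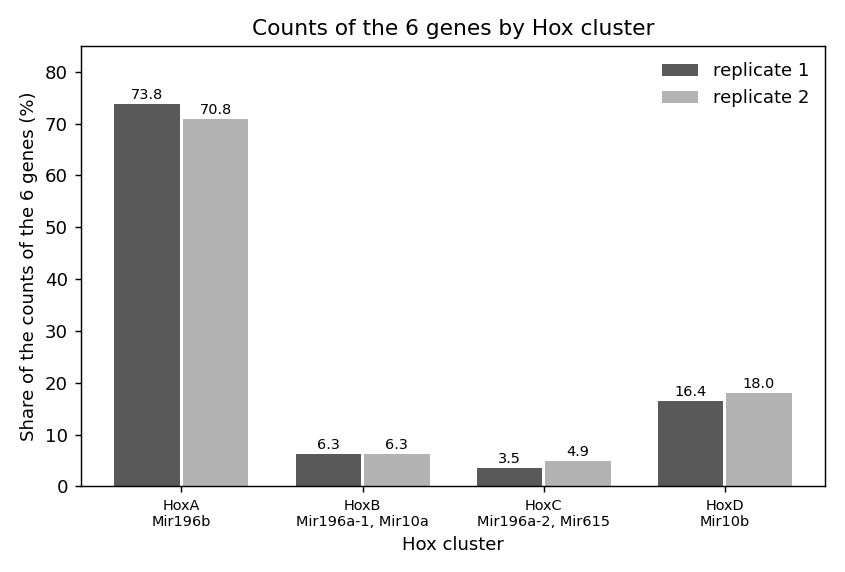
Share of the summed counts of the 6 genes held by each Hox cluster, in percent, with replicate 1 in dark and replicate 2 in light bars. HoxA holds 73.8% and 70.8%, HoxD 16.4% and 18.0%, and HoxB and HoxC, with 2 genes each, under 7% each. The shares hold assigned reads only, and reads of the Mir196a copies in HoxB and HoxC that map to several places are missing.

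Between the libraries the 6 genes moved by different amounts and in both directions. The log2 ratio of replicate 2 over replicate 1 was 0.45 for Mir615 (SE 0.018, from counting), 0.15 for Mir196a-1 (SE 0.18), 0.03 for Mir196a-2 (SE 0.025), -0.02 for Mir10b (SE 0.0071), -0.15 for Mir10a (SE 0.012) and -0.22 for Mir196b (SE 0.0035). Of the 5 genes at 100 CPM or more, 0 differed by more than 1.5 times, against 8.99% of the 189 genes at that level, a share at which a count of 0 among 5 does not set them apart. The ratio of Mir615 was larger in size than that of 82.5% of these 189 genes, whose ratios had an SD of 0.32, and that of Mir10b than 5.82%. The common biological coefficient of variation of the 2 libraries was 16.3% (edgeR, 436 genes). The part of the set outside Mir196b, 3.31% ± 0.0026 of the gene counts, was nearly the same in the libraries, so the difference between the summed shares of 12.7% and 11.3% lay almost wholly in Mir196b. Inside that part Mir615 was higher in replicate 2 and Mir10a higher in replicate 1. The genes of 1 cluster did not keep a common ratio: in HoxC Mir615 had 0.45 and Mir196a-2 0.03.

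**Figure D4:**
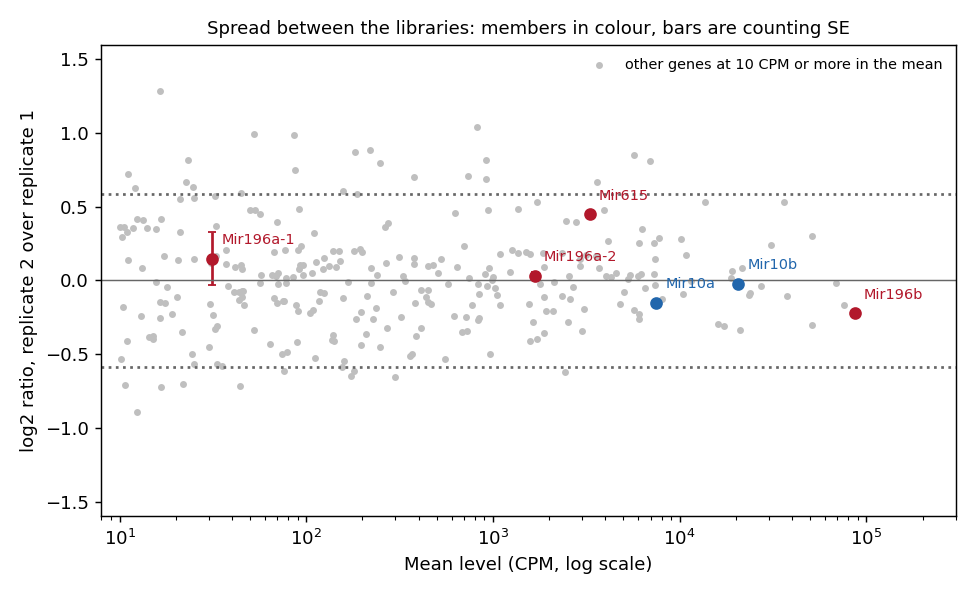
Log2 ratio of replicate 2 over replicate 1 against the mean level in CPM on a log axis, with the 6 genes in colour (posterior red, anterior blue; bars are counting SE) and the other genes with a mean of at least 10 CPM in grey; dotted lines mark 1.5-fold. All 6 genes lie between the dotted lines, from -0.22 for Mir196b to 0.45 for Mir615.

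In level, the 6 genes stood among microRNAs of different tissues. With likeness taken as the smallest distance in log2 mean CPM over 2 libraries, the neighbours of Mir10b were Mir30e at 20958 ± 3411 CPM and Mir126a, an endothelial microRNA, at 18968 ± 624 CPM. Those of Mir10a were Mir744 at 7718 ± 1095 CPM and Mir205, an ectoderm microRNA, at 7403 ± 120 CPM. Mir615 stood between Mir15a at 3583 ± 288 and Mir379 at 3168 ± 271 CPM. Mir196a-2 stood between the cartilage microRNA Mir455 at 1713 ± 442 and Mir425 at 1648 ± 225 CPM, and Mir196a-1 between Mir34b at 31.7 ± 3.6 and Mir449a at 30.9 ± 1.8 CPM. All of these neighbours overlapped with their Hox microRNA between libraries except Mir126a, which lay below Mir10b in both.

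The nearest relatives by sequence outside the Hox clusters are miR-99 and miR-100. Shifted by 1 base, miR-100-5p differs from miR-10a-5p at 3 of 22 aligned bases, miR-99a-5p at 4 and miR-99b-5p at 7, so their seeds are not those of miR-10. The 6 Hox genes held 1.61 times (interval 1.61 to 1.62) the counts of Mir99a, Mir99b and Mir100 in replicate 1 and 1.40 times (1.39 to 1.41) in replicate 2. Mir10b and Mir10a alone, at 2.86% and 2.75% of the gene counts, lay below these 3 relatives, at 7.85% and 8.09%.

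Matches to the seeds were counted in the 3′ UTRs of the 39 Hox genes, as a description of the sequences and not of the limb samples. The longest 3′ UTR of each gene in GENCODE M21 was searched on the transcript strand. ACTACCT, the match to the miR-196 seed, occurred in 9 of the 39 Hox genes (23.1%), against 6.11% of 21015 protein-coding genes, at 0.340 and 0.0455 matches per kb. The genes with more than 1 match were Hoxa7, with 4, and Hoxc8, with 2. Of the 13 matches 2 were also a match to let-7 (CTACCTC, which overlaps it), against 26.5% of the matches in all genes. ACAGGGT, the match to the miR-10 seed, occurred in 4 of the Hox genes (10.3%), against 12.5% of all genes, at 0.105 and 0.0997 per kb. GGCTCGG, for miR-615-3p, occurred in Hoxb4 only, 2.56% against 2.30%. The median 3′ UTR was 966 nucleotides in Hox genes and 961 in all genes. None of these shares was tested, and a match is not evidence of a site.

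Hoxb8 is not among the 9 because its seed match holds a G to U pair. A gapless search of all Hox 3′ UTRs placed the stretch most complementary to miR-196a-5p there, at mm10 chr11:96284888-96284909 on the plus strand, and this site is shown because it separates miR-196a from miR-196b. Capitals mark the bases in Watson-Crick pairs with miR-196a-5p, and the last base pairs with base 1 of the microRNA.
Hoxb8 3′ UTR site: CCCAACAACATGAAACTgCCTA
In it 21 of 22 bases form Watson-Crick pairs with miR-196a-5p and the remaining base a wobble pair. With miR-196b-5p 20 bases pair, 1 is a wobble and 1 is unpaired, at the base that sets the 2 strands apart. The next Hox stretch for miR-196a-5p, in Hoxd8, had 15 Watson-Crick pairs. For miR-10a-5p and miR-10b-5p the best Hox stretches had 14 and 15 of 23. The strand with the closer match to Hoxb8 is thus the one with 2 genomic copies, and the tables give no level for the strand itself. Messenger RNA was not measured here.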

How the data were processed

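The deposited values are unnormalised counts of reads for each of 1973 microRNA genes, in columns for both strands, for the strand of the gene and for the strand opposite to it; the first equalled the sum of the others in every row. Per the README deposited with each library, they were made from an alignment to mm10 with GENCODE M4. For the aligner, counter, trimming and mismatches, the setting was not given in the sources used here. In replicates 1 and 2, 42.5% and 37.0% of the reads were counts on genes. Summary rows without a gene stayed out of the totals: 23.8% and 32.6% of the reads were unmapped, 27.2% and 23.7% mapped to several places, and 6.49% and 6.70% lay outside genes. Losing reads that map to several places lowers genes with identical copies.

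From the second of these columns CPM, shares, ratios and exact binomial intervals were computed (Python 3.11.15, scipy 1.17.1). Of 1973 identifiers 1894 matched GENCODE M21, including all 6 members. Log2 ratios had 0.5 counts added to each library. The common dispersion (genes whose counts summed to at least 10) and TMM scaling came from edgeR 4.0.16, size factors from DESeq2 1.42.0, and the code was tested on simulated data. The genes named are the 6 members, the genes next above and below each in mean level, Mir99a, Mir99b and Mir100, any gene sharing a seed, and the markers of the limb and other tissues. Members and lists were chosen with earlier results of these data known. No gene was tested between conditions, since there is 1 group.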

Additional observations from a re-analysis of the deposited data

How the results depend on the processing

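The order of the 6 genes, the ratio of posterior over anterior genes and the HoxA share do not depend on the total or on scaling within a library. With all reads of the tables as the total, levels fell to 34706 for Mir196b, 8184 for Mir10b, 2992 for Mir10a, 1299 for Mir615, 667 for Mir196a-2 and 12.4 for Mir196a-1 per 1000000 reads, and the share of the 6 genes to 4.79%. With both strands in the total, Mir10b stood at 20060 CPM and Mir196a-2 at 1636 CPM. Counting genes with 10 counts or more, TMM or DESeq2 size factors moved no level, share or ratio between genes by more than its SD. The ranking by coefficient of variation did depend on the scaling. Mir10b had the lowest in CPM, but with TMM it was lower for Mir196a-2 (1678 ± 11 CPM) than for Mir10b (20576 ± 419 CPM). With all reads as the total it was higher for Mir196b (34706 ± 7104) than for Mir615 (1299 ± 159). Without Mir196b the share of the 6 genes was 3.31%. The posterior over anterior ratio was 2.82 with Mir615 on the anterior side and 2.90 per nucleotide of hairpin, and Mir196b over Mir10b was 3.37 per nucleotide; these 3 alternatives were chosen after the data or the annotation were seen.

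With 1 library left out, values ranged from 80201 to 93461 CPM for Mir196b, 20420 to 20729 for Mir10b, 7102 to 7892 for Mir10a, 2791 to 3812 for Mir615, 1659 to 1698 for Mir196a-2 and 29.8 to 33.0 for Mir196a-1. The share of the 6 genes ranged from 11.3% to 12.7%, the posterior over anterior ratio from 3.12 to 3.42, Mir196b over Mir10b from 3.93 to 4.51 and the HoxA share from 70.8% to 73.8%. No setting put a member past 1.5-fold between the libraries. All reads as the total shifted every log2 ratio of replicate 2 over replicate 1 by -0.20, which turned those of Mir196a-2 (-0.17) and Mir196a-1 (-0.05) negative. No paired analysis was possible because there is 1 group. Mir196a-1 had the fewest counts, 135 and 119, and so the widest counting interval relative to its level.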
